A study of Mus musculus and Homo sapiens with 10 samples.

Results

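TNRC18 and BAHCC1 are paralogous genes that encode large chromatin proteins with a bromo-adjacent homology (BAH) domain. Their loci were examined in every deposited peak list, as the called peaks that overlap the gene or a margin of 10 kb on either side by at least 1 bp. In the human build hg19 the loci were chromosome 7 from 5336000 to 5473000 for TNRC18 and chromosome 17 from 79363000 to 79444000 for BAHCC1. In the mouse build mm9 they were chromosome 5 from 143470000 to 143590000 for Tnrc18 and chromosome 11 from 120085000 to 120165000 for Bahcc1. They held 103 of the 208002 peaks of the series: 11 at TNRC18, 12 at BAHCC1, 47 at Tnrc18 and 33 at Bahcc1. The loci were chosen by peak width, since they hold some of the widest peaks of the upstream binding factor (UBF), so the widths and the UBF coverage given here are descriptions and support nothing further.

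The peaks come from chromatin immunoprecipitation followed by sequencing in 3 cell lines. For NIH3T3, immortalized fibroblasts of the mouse, lists of UBF, RNA polymerase I (Pol I), RNA polymerase II (Pol II), H3K9me3, H3K9ac, H3K4me3 and H4 hyperacetylation were used. HMEC is a line of primary human mammary epithelial cells immortalized with TERT, with lists of UBF and Pol I. HMLER was derived from HMEC, expresses the SV40 large-T antigen, TERT and the oncogenic HRAS allele HRASV12G, and has a UBF list. The labels name no treatment of any line, and the cells were growing exponentially at harvest. Each antibody and line has 1 list without scores or read counts, so the depth behind a peak is unknown, there is no replicate check, and no difference between lines or species was tested. The lists hold no expression values and no annotation of either build was used, so the identity of the cells was not checked against marker genes.

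UBF is an architectural factor with several HMG boxes that is best known for coating the active ribosomal RNA genes, which Pol I transcribes. It has also been found at promoters transcribed by Pol II. The BAH domain of TNRC18 is known to read H3K9me3, the mark of silent heterochromatin, and that of BAHCC1 to read H3K27me3, the mark of Polycomb silencing. H3K4me3, H3K9ac and hyperacetylated H4 mark active promoters and open chromatin. All of this is background and none of it was measured here.

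RefSeq provides the promoters of the mouse genes in the build GRCm38.p6. They are shown because the widest UBF peak of each mouse locus starts at or near the 5′ end of the gene. The positions were not carried to mm9, so which peak covers the printed bases was not determined. Each line gives the 250 bases before the annotated start, 5′ to 3′ on the strand of the gene, with matches to the CCAAT, GC and TATA boxes on either strand in capitals. The first lies on chr5:142817663-142817912 on the minus strand and the second on chr11:120232697-120232946 on the plus strand.
Tnrc18 promoter: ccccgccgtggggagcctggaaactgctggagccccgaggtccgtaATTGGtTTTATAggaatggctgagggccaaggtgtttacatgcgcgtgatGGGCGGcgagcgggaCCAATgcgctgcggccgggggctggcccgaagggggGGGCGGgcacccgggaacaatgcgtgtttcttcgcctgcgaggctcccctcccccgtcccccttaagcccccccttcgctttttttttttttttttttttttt
Bahcc1 promoter: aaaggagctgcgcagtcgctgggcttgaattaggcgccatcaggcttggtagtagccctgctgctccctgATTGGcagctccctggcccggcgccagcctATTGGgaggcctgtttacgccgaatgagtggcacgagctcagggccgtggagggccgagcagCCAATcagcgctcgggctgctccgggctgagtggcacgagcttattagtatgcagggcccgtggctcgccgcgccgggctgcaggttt

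Both promoters are rich in CpG. That of Tnrc18 is 61.6% G and C with 20 CpG dinucleotides, and that of Bahcc1 is 65.2% with 19. The medians over the 32851 promoters of the table are 52.4% and 6, and 17.9% of them hold at least 20 CpG and 19.7% at least 19. The CCAAT box, searched as the letters CCAAT on both strands, occurs 2 times in the Tnrc18 stretch and 3 times in that of Bahcc1. Of all promoters, 33.8% hold it at least 1 time, 10.1% at least 2 times and 2.79% at least 3 times. The GC box, GGGCGG on both strands, occurs 2 times in Tnrc18 and 0 times in Bahcc1. It is held by 32.7% of promoters, and at least 2 times by 16.7%. The TATA box, TATAAA on both strands, occurs 1 time in Tnrc18 and 0 times in Bahcc1, with 12.4% of promoters holding it. The E box CACGTG is in neither stretch and in 6.02% of promoters. No match overlaps another, and a match is a run of letters, not a measured site.

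In the NIH3T3 UBF list each mouse paralog carried the same arrangement, a wide peak at the 5′ end of the gene and a narrower peak just upstream. Distances are counted from the 5′ end of the gene span that the 10 kb margins leave, a position rounded to 1 kb, with positive values into the gene. At Tnrc18 the wide peak ran on chromosome 5 from 143573699 to 143580012, a width of 6313 bp that ranks 2 among the 3704 peaks of the list. The upstream peak, from 143581817 to 143583818, was 2001 bp wide and ranked 125. At Bahcc1 the wide peak ran on chromosome 11 from 120094909 to 120099255, a width of 4346 bp and rank 5. Its upstream peak, from 120091968 to 120092963, was 995 bp wide and ranked 1759, close to the median width of the list of 981 bp.

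The wide peak of Tnrc18 reached from the 5′ end to 6.3 kb inside the gene and that of Bahcc1 from 0.1 kb upstream to 4.3 kb inside. The gap to the upstream peak was 1805 bp at Tnrc18 and 1946 bp at Bahcc1. From the outer edge of one peak to the outer edge of the other, UBF spanned 10119 bp at Tnrc18 and 7287 bp at Bahcc1. The other parts of both gene spans, 100 kb and 60 kb long, held no UBF peak. UBF thus covered 6.93% of the Tnrc18 locus and 6.68% of the Bahcc1 locus, against a mean of 0.150% over fixed windows of the same lengths along the chromosomes. Of those windows, 0.0227% were covered at least as much as Tnrc18 and 0.0394% at least as much as Bahcc1. The loci were chosen for this property, and nothing is read from those shares.

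**Figure D1:**
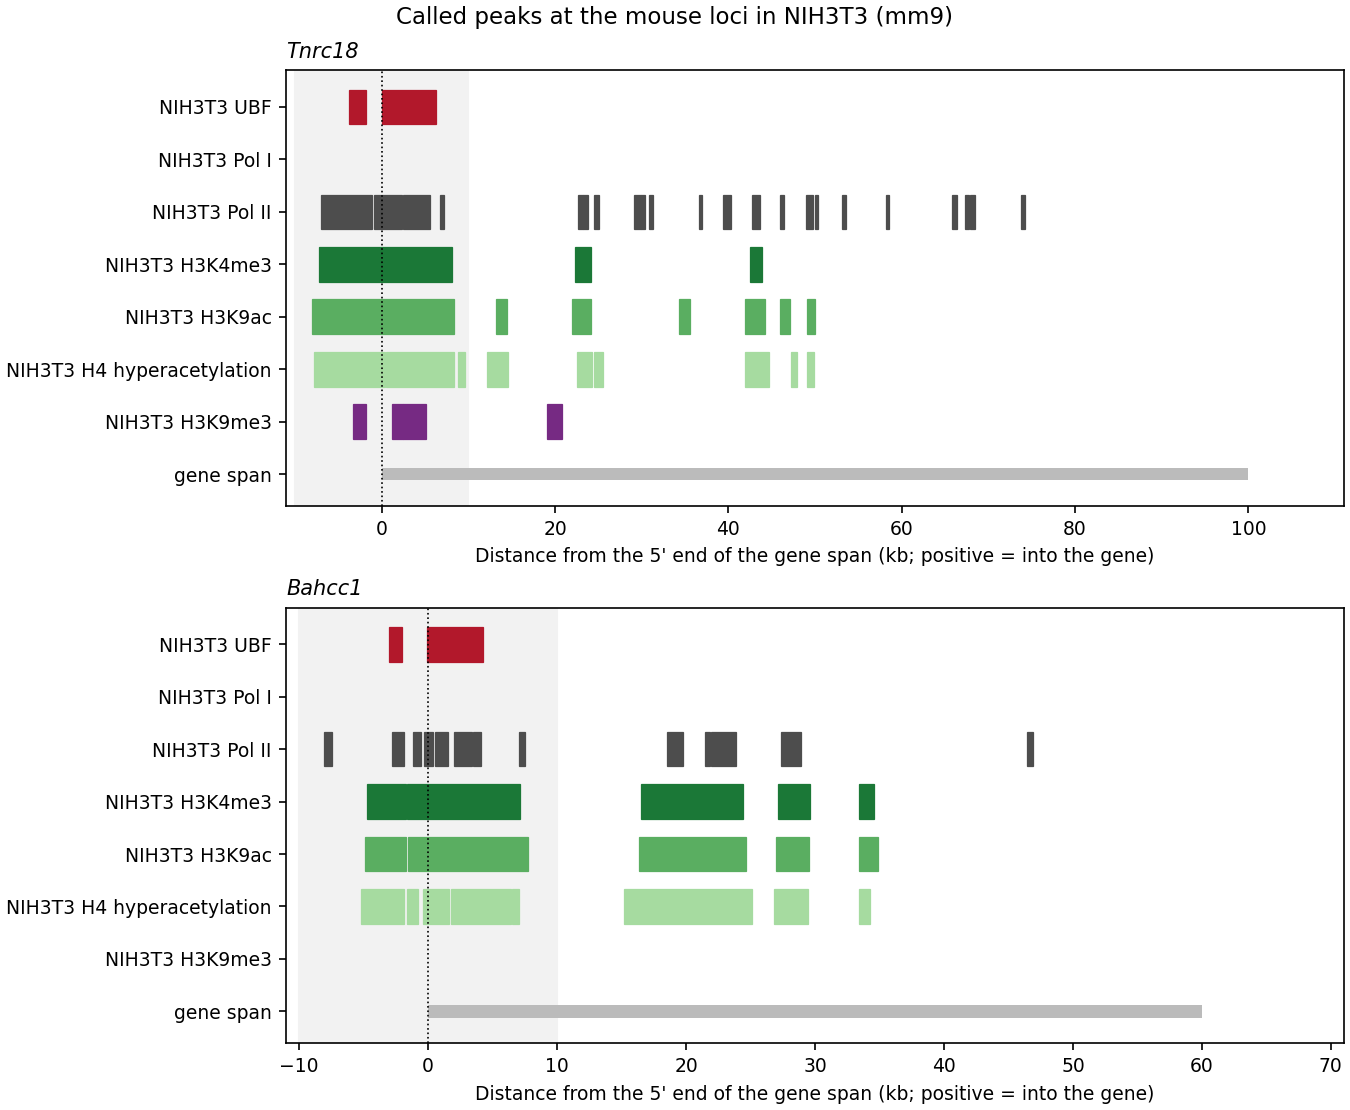
Called peaks of the 7 NIH3T3 lists at Tnrc18 and Bahcc1, drawn by distance in kb from the 5′ end of the gene span, with the 10 kb on either side of that end shaded and the gene span as a grey bar. The 4 UBF peaks all lie in the shaded part, whereas Pol II, H3K4me3 and both acetylation marks also have peaks further into the genes.

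All 4 UBF peaks of the mouse loci overlapped Pol II and all 3 active marks, which 47.5% of the whole UBF list did. Taken one by one, H4 hyperacetylation was met by 50.2% of that list, H3K9ac by 49.1%, H3K4me3 by 49.3% and Pol II by 50.5%. Wide UBF peaks met them more often: of the 125 peaks at least as wide as the upstream peak of Tnrc18 (2001 bp), 90.4% overlapped Pol II and all 3 active marks. The 3 peaks of that width at the mouse loci therefore did what most such peaks did. H3K4me3 and H3K9ac covered 100% of each of the 4 UBF peaks. H4 hyperacetylation covered 98.8% of the wide peak of Tnrc18, 97.1% of that of Bahcc1 and 100% of both upstream peaks. Pol II covered 87.8% and 100% of the wide and the upstream peak of Tnrc18, and 79.7% and 73.9% of those of Bahcc1. UBF therefore lay inside a larger active domain at both genes. At Tnrc18 that domain was 1 H3K4me3 peak of 15341 bp, from 143571914 to 143587255, the peak of rank 9 among 27982, and UBF covered 54.2% of it. H3K9ac had 1 peak of 16331 bp over the same place, with rank 12 among 28308, and H4 hyperacetylation had 2 peaks of 7937 and 8170 bp.

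At Bahcc1 the active domain was made of 2 H3K4me3 peaks, of 8749 bp (rank 86) from 120093334 to 120102083 and of 2988 bp (rank 4664) from 120090272 to 120093260. UBF covered 49.7% of the first and 33.3% of the second. The widest H3K9ac peak of the locus, of 9316 bp, lay over the first. The stretch between the 2 UBF peaks was not free of the other proteins and marks. At Tnrc18, Pol II covered 89.3% of that stretch and each active mark 100%. At Bahcc1, Pol II covered 48.9% of it, H3K4me3 96.2%, H3K9ac 92.2% and H4 hyperacetylation 66.8%. The absence of a UBF peak there is a property of the list and its unknown threshold, and does not show that UBF was absent.

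H3K9me3 had peaks at 1 paralog and not at the other. At Tnrc18 both UBF peaks overlapped H3K9me3, which 16.2% of all NIH3T3 UBF peaks did, and at Bahcc1 neither did. Among the 125 UBF peaks of at least 2001 bp, 56.8% overlapped H3K9me3, so peaks of this width were found both with and without it in the list. The wide UBF peak of Tnrc18 contained 2 H3K9me3 peaks, from 143574877 to 143577522 (2645 bp) and from 143577578 to 143578866 (1288 bp), which together covered 62.3% of it. The upstream UBF peak contained the third, from 143581827 to 143583308 (1481 bp), which covered 74.0% of it. The 3 H3K9me3 peaks near the 5′ end thus lay wholly inside UBF peaks, and H3K9me3 covered 0% of the gap between them. Over the whole H3K9me3 list 2.58% of peaks overlapped UBF. Tnrc18 was chosen for wide UBF peaks, so nothing is read from this difference. Another H3K9me3 peak, of 1688 bp from 143559200 to 143560888, lay 19.1 to 20.8 kb inside the gene, where no UBF peak was called. The Bahcc1 locus held no H3K9me3 peak, and the nearest lay 14.3 kb outside its edge at lower coordinates and 16.4 kb outside the other. Of windows as long as the Bahcc1 locus along the genome, 38.5% held an H3K9me3 peak, so that its absence is the commoner state among them. The windows directly on either side of the Bahcc1 locus did hold H3K9me3 peaks, 3 at lower and 7 at higher coordinates. Beside Tnrc18, the window at lower coordinates held 0 H3K9me3 peaks and that at higher coordinates held 7. These 7 covered 9.55% of their window, against 5.92% of the Tnrc18 locus covered by H3K9me3.

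UBF peaks with Pol II, all active marks and H3K9me3 together, as at Tnrc18, made up 13.8% of the whole UBF list. Whether the active and the silent mark were on the same chromosomes or in different cells cannot be told apart from lists of peaks. No Pol I peak lay at either mouse locus, whereas 7.32% of all NIH3T3 UBF peaks overlapped Pol I. The nearest Pol I peak was 505.6 kb outside the Tnrc18 locus and 44.6 kb outside the Bahcc1 locus. Of windows of these lengths 5.59% and 3.85% held any Pol I peak, so a lack of Pol I is the usual state for windows of this size.

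Pol II and the active marks continued into the genes where UBF did not. Pol II covered 19.2% of the Tnrc18 locus and 14.7% of the Bahcc1 locus, and 0.418% and 1.12% of windows of those lengths were covered at least as much. H3K4me3 covered 15.5% and 29.1%, values reached by 2.17% and 0.252% of windows, so that Bahcc1, the shorter gene, had the larger marked share. Some windows directly beside the loci were covered as much or more. Beside Tnrc18, Pol II covered 0% at lower and 13.4% at higher coordinates, and H3K4me3 covered 1.84% and 20.4%. Beside Bahcc1 the values were 4.68% and 17.1% for Pol II, and 8.27% and 29.3% for H3K4me3. The Tnrc18 locus held 22 Pol II peaks, and 3 of them overlapped UBF (exact binomial 95% interval 2.91 to 34.9%), against 6.60% over the whole Pol II list. The count of 22 became 13 with peaks under 1000 bp apart joined and 7 in the wider 50% of the list, and the 13 of Bahcc1 became 7 under both. The 3 with UBF were the wide ones at the 5′ end, of 3213, 3224 and 5924 bp. A further Pol II peak near the 5′ end was 472 bp wide, and the other 18 lay 22.7 to 74.3 kb inside the gene and were 353 to 917 bp wide. At Bahcc1, 5 of 13 Pol II peaks overlapped UBF (13.9 to 68.4%), and these were 623 to 1382 bp wide. Another 3 lay within 10 kb of the 5′ end without UBF, and the other 5 lay 18.6 to 46.9 kb inside the gene and were 428 to 1962 bp wide. The intervals cover counting error only, and peaks of 1 locus are not independent. These loci were chosen for wide UBF peaks, so nothing is read from the shares of Pol II peaks with UBF.

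A wide active domain without a UBF peak lay inside Bahcc1. Its H3K4me3 peak ran from 120111493 to 120119445, 7952 bp wide with rank 140, at 16.5 to 24.4 kb from the 5′ end. H3K9ac covered it with a peak of 8317 bp, H4 hyperacetylation with a peak of 9962 bp (rank 65 among 41519), and 3 Pol II peaks overlapped it. It is nearly as wide as the H3K4me3 peak of 8749 bp at the 5′ end, of which UBF covered 49.7%. The other 2 H3K4me3 peaks inside Bahcc1 were 2457 and 1146 bp wide, and the 2 inside Tnrc18 were 1406 and 1799 bp wide. None of these 5 H3K4me3 peaks overlapped UBF, whereas the 3 near the 5′ ends did. The whole H3K4me3 list overlapped UBF at 6.41% of its peaks. This share is background only, because the loci were chosen for wide UBF peaks.

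In the human lines UBF was again found around the 5′ ends. In HMEC the TNRC18 locus held 6 UBF peaks, and all 6 lay within 10 kb of the 5′ end. TNRC18 is transcribed from the minus strand, so this end has the higher coordinates. Inside the gene the peaks ran from 5458588 to 5459097 (509 bp), from 5459510 to 5461042 (1532 bp), from 5461064 to 5461564 (500 bp) and from 5461759 to 5462832 (1073 bp). Upstream they ran from 5466883 to 5467913 (1030 bp) and from 5468673 to 5469261 (588 bp). The gap of 4051 bp between the 2 sets began 0.2 kb inside the gene and lay otherwise upstream. The widest ranked 135 among the 9478 peaks of the list, whose median width was 469 bp.

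BAHCC1 held 5 UBF peaks in HMEC, of which 4 lay within 10 kb of the 5′ end. They ran from 79366683 to 79367127 (444 bp), from 79369694 to 79371733 (2039 bp), from 79371754 to 79373159 (1405 bp) and from 79373538 to 79374632 (1094 bp). The peak of 2039 bp ranked 45 in the list, the highest rank of an HMEC UBF peak at either gene, and the next peak began 21 bp after it. The fifth peak, from 79389933 to 79390591 (658 bp), lay 16.9 to 17.6 kb inside the gene. Of the 11 HMEC UBF peaks at both genes, 10 were wider than the median of the list.

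HMLER had 1 very wide UBF peak over the 5′ end of each gene. At TNRC18 it ran from 5457780 to 5470237, 12457 bp, the widest of the 32274 peaks of that list. It contained all 6 HMEC peaks of the locus, which together covered 42.0% of it, and it filled the 4051 bp that separated them. At BAHCC1 the HMLER peak ran from 79368515 to 79374934, 6419 bp and rank 17, and contained 3 HMEC peaks, which covered 70.7% of it. An adjacent HMLER peak, from 79366350 to 79368232 (1882 bp), contained the remaining HMEC peak near the 5′ end. Over both genes, 10 of 11 HMEC peaks overlapped an HMLER peak, all 6 at TNRC18 (exact binomial 95% interval 54.1 to 100%) and 4 of 5 at BAHCC1 (28.4 to 99.5%), against 56.8% of the whole HMEC list. The exception was the HMEC peak inside BAHCC1. HMEC peaks under the same HMLER peak are not independent, and these intervals cover counting error only. Of the HMEC peaks at least 1000 bp wide, 6 lay at these genes and all 6 overlapped HMLER, against 53.9% of the 642 peaks of that width in the list. These loci were chosen for wide UBF peaks, HMLER included, and nothing is read from these shares.

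**Figure D2:**
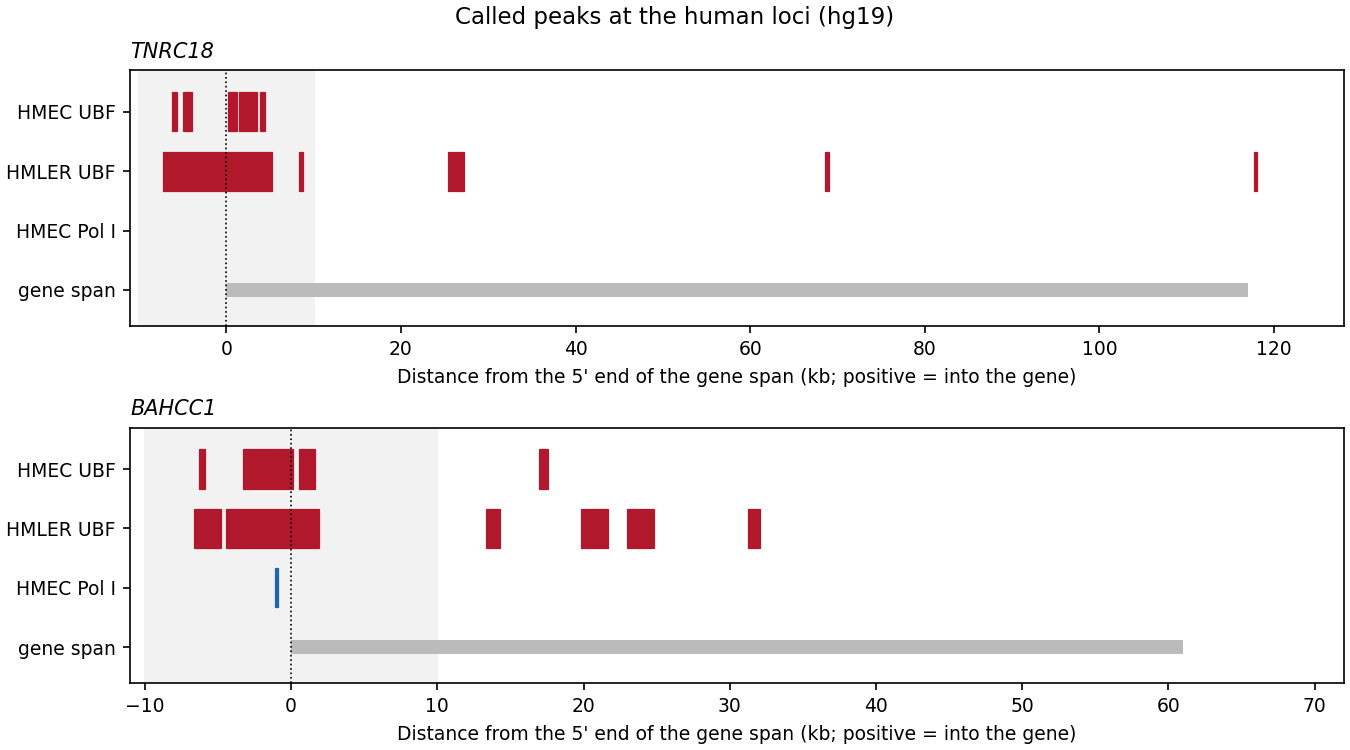
Called peaks of the 3 human lists at TNRC18 and BAHCC1, drawn by distance in kb from the 5′ end of the gene span, with the 10 kb on either side of that end shaded. The 6 HMEC UBF peaks at TNRC18 lie under the single HMLER peak of 12457 bp, and the further HMLER peaks inside both genes have no HMEC peak at the same place.

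Inside the genes HMLER held UBF peaks at places where HMEC held none. At TNRC18 they ran from 5435780 to 5437617 (1837 bp), from 5393945 to 5394385 (440 bp) and from 5344924 to 5345252 (328 bp), the last beyond the 3′ end of the gene span. One more, from 5454164 to 5454689 (525 bp), lay 8.3 to 8.8 kb from the 5′ end. At BAHCC1 the 4 peaks inside the gene lay 13.3 to 32.0 kb from the 5′ end. They ran from 79386327 to 79387264 (937 bp), from 79392850 to 79394647 (1797 bp), from 79395990 to 79397797 (1807 bp) and from 79404222 to 79405038 (816 bp). Together, 1 of 5 HMLER peaks at TNRC18 and 2 of 6 at BAHCC1 overlapped HMEC UBF, against 14.6% of the whole HMLER list. Nothing is read from these shares either, since both loci were chosen for wide UBF peaks.

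UBF covered more of both loci in HMLER than in HMEC. It covered 5232 bp of the TNRC18 locus in HMEC and 15587 bp in HMLER, and 5640 and 13658 bp of the BAHCC1 locus. Within 10 kb of the 5′ ends it covered 26.2% in HMEC and 64.9% in HMLER at TNRC18, and 24.9% and 41.5% at BAHCC1. The numbers of peaks were 6 in HMEC and 5 in HMLER at TNRC18 and 5 and 6 at BAHCC1. They depend on how finely a list divides its peaks: with peaks under 1000 bp apart joined, they were 2 and 5 at TNRC18, which turns the direction there, and 3 and 5 at BAHCC1. Over the whole lists, peaks were 3.41 times as numerous in HMLER and covered 7.29 times as many bp. The covered bp were 2.98 times as many at the TNRC18 locus and 2.42 times at the BAHCC1 locus, below that list-wide ratio. The median width was 469 bp in the HMEC list and 982 bp in the HMLER list, neither the peak caller nor its settings are stated in the labels or files, and the part of these list-wide differences in the values at the 2 genes was not tested.

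**Figure D3:**
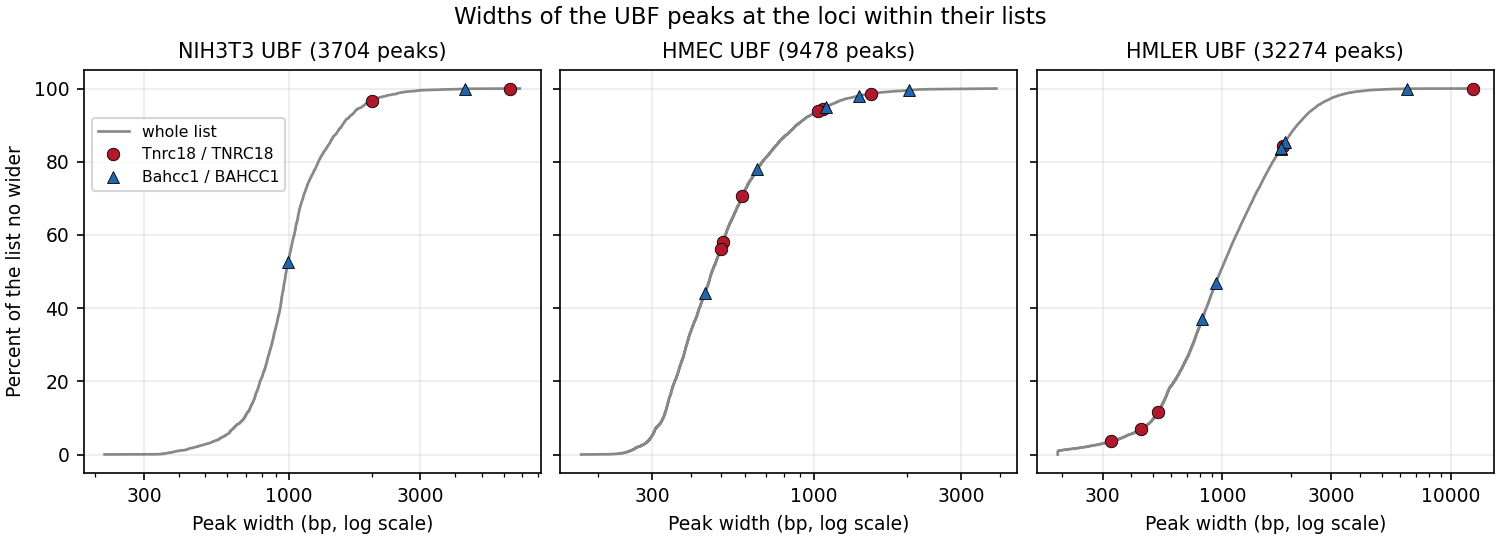
Cumulative share (percent) of peaks no wider than a given width (bp, log scale) in the 3 UBF lists, with the UBF peaks at Tnrc18 or TNRC18 as circles and those at Bahcc1 or BAHCC1 as triangles. The widest peak at the loci is 12457 bp in HMLER (rank 1), 6313 bp in NIH3T3 (rank 2) and 2039 bp in HMEC (rank 45). The narrowest HMLER peak at the loci is 328 bp wide.

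Pol I was called at 1 of the 2 genes in HMEC. The TNRC18 locus held no Pol I peak. The BAHCC1 locus held 1, from 79371919 to 79372124, 205 bp wide and below the median of the Pol I list of 290 bp. It lay 0.9 to 1.1 kb upstream of the 5′ end, wholly inside the HMEC UBF peak of 1405 bp and inside the HMLER peak of 6419 bp. Of all HMEC Pol I peaks, 2.86% overlapped HMEC UBF, but nothing is read from this overlap at a locus chosen for wide UBF peaks. Of windows as long as the BAHCC1 locus 19.4% held a Pol I peak, and 29.1% of those as long as TNRC18, so neither the peak nor its absence is unusual by count. No Pol I list for HMLER was analysed here.

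The spans of UBF near the 5′ ends can be set side by side. Measured from the first to the last UBF peak within 10 kb of the 5′ end, the span was 10119 bp at Tnrc18 in NIH3T3, 10673 bp at TNRC18 in HMEC and 16073 bp in HMLER, where it takes in the separate peak of 525 bp. For Bahcc1 it was 7287 bp in NIH3T3, and for BAHCC1 it was 7949 bp in HMEC and 8584 bp in HMLER. In each of the 3 lists the TNRC18 span was the longer. The placement was not the same. At Tnrc18 UBF reached from 3.8 kb upstream to 6.3 kb inside the gene, and at TNRC18 from 6.3 kb upstream to 4.4 kb inside in HMEC and from 7.2 kb upstream to 8.8 kb inside in HMLER. At Bahcc1 it reached from 3.0 kb upstream to 4.3 kb inside, and at BAHCC1 from 6.3 kb upstream to 1.6 kb inside in HMEC and from 6.7 kb upstream to 1.9 kb inside in HMLER. The ends of the gene spans are rounded and the lists differ in length and width, so differences of about 1 kb are not interpreted.

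The share of UBF peaks near the 5′ end differed between the lists. It was 4 of 4 in NIH3T3, 10 of 11 in HMEC and 4 of 11 in HMLER. By covered bp, the part within 10 kb of the 5′ end was 100% at both mouse loci, 100% at TNRC18 and 88.3% at BAHCC1 in HMEC, and 83.3% and 60.8% in HMLER. The HMLER list is 8.71 times as long as the NIH3T3 list, and whether its additional peaks inside the genes reflect the cells or the list was not tested.

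**Figure D4:**
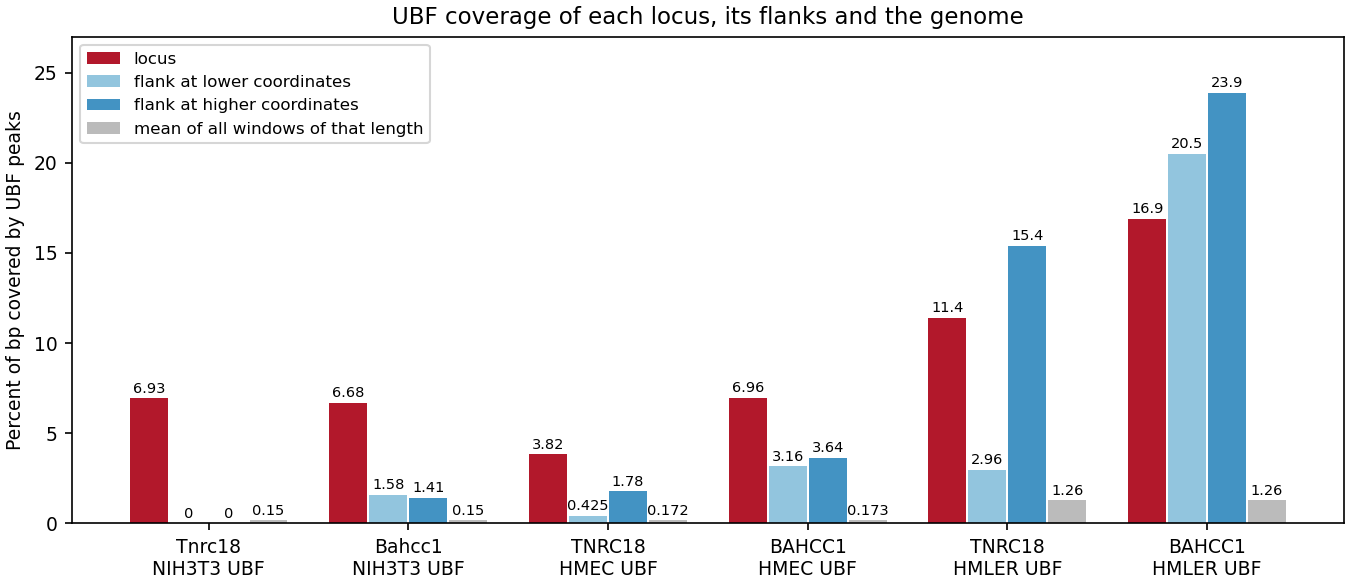
Percent of bp covered by UBF peaks at each locus, in the windows of the same length directly on either side, and on average over all fixed windows of that length, for the 3 UBF lists. The loci stand above both flanks in NIH3T3 and HMEC, but in HMLER both flanks of BAHCC1 and 1 flank of TNRC18 are covered more than the locus.

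The surroundings of the genes differed between the lists. In NIH3T3 the windows on either side of Tnrc18 held no UBF peak, and the nearest lay 131.8 kb outside the locus. Those beside Bahcc1 held 1 each and were covered at 1.58% and 1.41%. In HMEC the coverage was 3.82% at TNRC18 against 0.425% and 1.78% in its flanks, and 6.96% at BAHCC1 against 3.16% and 3.64%. In HMLER it was 11.4% at TNRC18 against 2.96% and 15.4%, and 16.9% at BAHCC1 against 20.5% and 23.9%. The HMLER coverage of these genes was thus above that of 1 of the 4 flanks, and it was above the mean of 1.26% over windows of those lengths. Of these windows 0.975% were covered by HMLER UBF at least as much as TNRC18 and 0.366% at least as much as BAHCC1, and 0.104% and 0.0374% by HMEC UBF.

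The edges of the loci fell close to other peaks in some lists. The nearest HMLER UBF peak outside BAHCC1 ended 0.8 kb beyond the edge at lower coordinates, and the first inside began 3.4 kb within it. The next beyond the other edge began 2.9 kb away. At Bahcc1 the closest peak outside was an H3K4me3 peak 0.6 kb beyond the edge at higher coordinates, and the last member lay 23.1 kb inside that edge. At Tnrc18 it was an H3K9me3 peak 2.8 kb beyond the edge at higher coordinates, and the last member lay 2.0 kb inside it. At TNRC18 the nearest peaks outside were HMLER UBF peaks 12.2 and 18.8 kb away.

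The windows most like each locus were found by the summed difference in percent covered over the lists of the species. For TNRC18 these were chromosome 6 from 26030000 to 26167000, chromosome 10 from 105490000 to 105627000 and chromosome 6 from 27674000 to 27811000, with sums of 1.19, 1.44 and 1.73 percentage points over 3 lists. For BAHCC1 they were chromosome 10 from 77112000 to 77193000, chromosome 6 from 26163000 to 26244000 and chromosome 6 from 27783000 to 27864000, at 1.36, 3.16 and 3.33 points. The windows on both chromosomes reached their coverage with more peaks, 7 to 11 in HMEC and 8 to 13 in HMLER, than the 5 or 6 of the loci. Since the loci were chosen for wide UBF peaks, nothing is read from this. In the mouse the sums add 7 lists rather than 3, so their size cannot be compared with that of the human sums. For Tnrc18 the closest windows were chromosome 17 from 27600000 to 27720000, chromosome 16 from 32640000 to 32760000 and chromosome 11 from 5760000 to 5880000, with sums of 12.2, 12.7 and 12.8 points over 7 lists. For Bahcc1 they were chromosome 14 from 26240000 to 26320000, chromosome 8 from 129040000 to 129120000 and chromosome 7 from 148560000 to 148640000, at 8.73, 10.5 and 12.5 points. UBF covered 0%, 1.34% and 2.33% of the 3 windows closest to Tnrc18 and 2.81%, 2.70% and 0% of those closest to Bahcc1, below the 6.93% and 6.68% of the loci. Pol II covered 15.4 to 19.9% of the former and 12.7 to 18.0% of the latter, against 19.2% and 14.7% at the loci, and H3K4me3 covered 15.3 to 17.8% and 28.4 to 29.2%, against 15.5% and 29.1%. Because the loci were chosen for wide UBF peaks, nothing is read from their higher UBF coverage. The window positions are given without gene names, since no annotation of mm9 or hg19 was used.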

How the data were processed

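The lists deposited by the authors give, per the file headers, the chromosome, start and end of each called peak, with 1 list for each antibody in each line and no score. Per the submitters' processing notes, the tools included Picard, BWA and CASAVA 1.8.2 and the builds were hg19 and mm9. How peaks were called and filtered, and whether the 2 biological replicates of NIH3T3 UBF were pooled, are points on which labels and files say nothing. The counting origin of the positions is likewise unstated, and width is end minus start.

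Peaks of the 4 loci were taken by a minimum overlap of 1 bp. Overlap and coverage were computed with numpy 2.4.6 in Python 3.11.15, and exact intervals with scipy 1.17.1. The overlap and coverage code was checked on 3000 simulated peaks, where all 300 and all 1500 planted overlaps were recovered. The intervals were not part of that check. Fixed windows of each locus length tiled the numbered chromosomes and X up to the last peak. A window or list share stands beside counts as background, and the shares among wide UBF peaks were added after seeing the data. The strand of the mouse genes was read from RefSeq and that of the human genes is general knowledge. Sequences of human promoters and the planned list of other BAH-domain genes were not used here, for lack of a matching annotation. Every UBF and Pol I peak at the loci is described, and for the other lists at least the widest. The members and lists were chosen with earlier results of these data known.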

Additional observations from a re-analysis of the deposited data

How the results depend on the processing

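The alternatives are named here one by one, and with n = 1 a count was held to be stable when it stayed within 1.5 times its value. Joining peaks under 1000 bp apart left 2 HMEC UBF peaks at TNRC18 and 3 at BAHCC1. With no margin around the genes, 3 HMEC UBF peaks remained at BAHCC1, 2 of them with HMLER, and 1 HMLER peak there had HMEC. The Pol I peak at BAHCC1 fell outside, so 0 Pol I peaks remained to overlap UBF. Tnrc18 and Bahcc1 then held 1 UBF peak each, 1 of 1 with Pol II and 1 of 1 with H3K4me3 at both, and 1 with H3K9me3 at Tnrc18. In the wider 50% of each list, 2 HMLER UBF peaks remained at TNRC18 and 1 HMLER peak at BAHCC1 had HMEC UBF. The Pol I peak at BAHCC1 was not among the wider 50%, so again 0 remained to overlap UBF. When at least 50% of the peak had to be covered, 0 HMLER peaks at TNRC18 and 1 at BAHCC1 had HMEC UBF. With the HMLER list limited to its 9478 widest peaks, chosen after seeing the data, 2 of 5 remained at TNRC18 and 4 of 6 at BAHCC1. The 6 HMEC peaks at TNRC18 and 4 at BAHCC1 that overlapped HMLER still did so. Taking peaks by their centre moved 0 of 20 counts. No paired analysis was possible because each group has 1 list. Depth is unknown, so weak peaks cannot be told from missing ones. No result met the rules for a closer look.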
